A study of Trametes cinnabarina with 16 samples.

Results

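In a wood-decaying fungus, 43 genes were low in all 6 libraries from cultures on poplar and switchgrass and abundant in 9 libraries from cultures on soluble sugars or without an energy substrate. They are 43 of 27990 genes of an assembled transcriptome of Pycnoporus cinnabarinus (Trametes cinnabarina), strain PB94, grown for at least 5 days on semi-minimal medium from an agar cube of 5 mm. The 16 libraries came from whole cultures on poplar (3 libraries), switchgrass (3), cellobiose (3), glucose (1), maltose (3) or no energy substrate (control, 3). The genes were chosen by their measured TPM: a gene was taken when its lowest level over 9 libraries (cellobiose, glucose, the first and second maltose libraries, control) was at least 20 TPM and at least 8 times its highest level over the 6 plant libraries. TPM is a measure of transcript level that allows for transcript length and sums to 1000000 in every library. Isoforms were summed to genes. The third maltose library was not used in the choice. Because the choice used the plant, sugar and control levels, those levels are a description and carry no test.

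Pycnoporus cinnabarinus is a white-rot basidiomycete, a fungus that breaks down lignin as well as the polysaccharides of wood, and it is known for its secreted laccase. Cellobiose is a disaccharide released from cellulose by cellulases, and maltose is its counterpart from starch; both are made of glucose units. Poplar and switchgrass supply whole plant cell walls, from a hardwood and a grass. The files pair no names with the assembly identifiers (TR number, component, gene), and 0 of them matched a reference list of 10441 genes of this species. No gene name, function, position or sequence can therefore be given for the 43 genes, and they are described by their levels.

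The control and sugar libraries were made from poly-A RNA and the plant libraries from RNA depleted of ribosomal RNA, per the labels' protocols. The plant substrates and the preparation cannot be told apart for any difference between plant and other libraries. The deposited tables also disagree on names: 16 of 16 columns hold the same values in both tables, and 0 of 16 carry the same name in both. Groups here follow the table on which the choice of genes rests, because under its names the other table's column order is that of the sample records (16 of 16). Under the names of the other table the same rule found 0 genes, so every direction below depends on this choice. Read depth is unknown for all libraries, since TPM keeps none. The top 10 genes by level took 25.6 to 75.3% of TPM in the plant libraries, 6.92 to 12.7% in the sugar libraries used for the choice and 6.57 to 8.84% in control. They took 83.7% in the third maltose library, which stands apart from the other poly-A libraries. The second poplar library, which was used in the choice, came nearest to it, at 75.3%. The labels do not say whether replicates are separate cultures; the p-values then reflect only how these libraries spread, which may be technical.

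The 43 genes together held 0.0158 to 0.0484% of TPM in the plant libraries, 1.23 to 1.53% in the 6 sugar libraries used for the choice and 1.45 to 1.62% in control. The median gene of the 43 was at 1.46 to 3.64 TPM in the plant libraries, 106 to 198 TPM in the sugar libraries and 152 to 169 TPM in control. They were low rather than absent on plant substrates: 41 of 43 were above 0 in at least 1 plant library, and 29 of 43 were above 0 in all 6. The highest plant level was under 1 TPM for 3 genes and under 5 TPM for 20, and it reached at least 20 TPM for 7. In RNA from whole cultures, fewer cells that express a gene and less of its RNA per cell cannot be told apart.

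**Figure D1:**
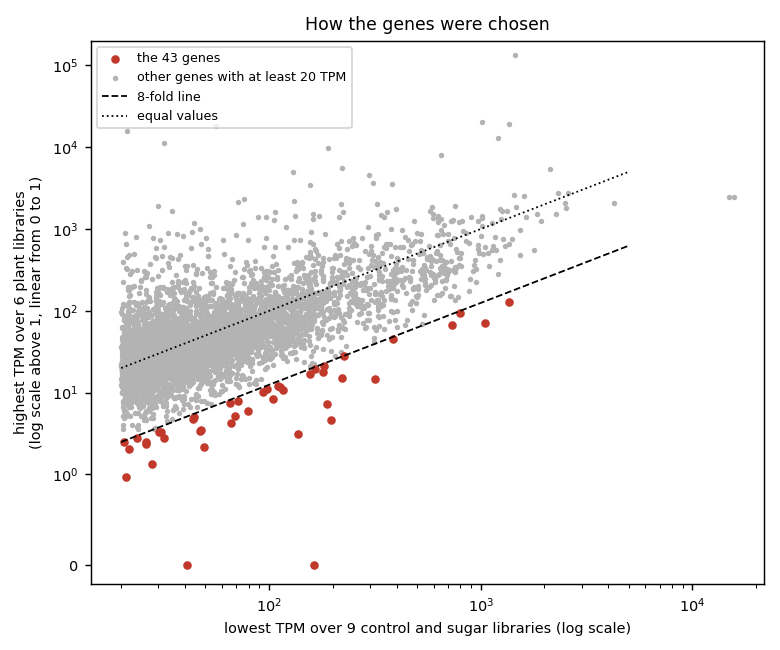
Lowest TPM over the 9 control and sugar libraries (x axis, log scale) against the highest TPM over the 6 plant libraries (y axis, log scale above 1) for the 4983 genes with at least 20 TPM in all 9. The 43 genes lie below the 8-fold line and continue the lower edge of the cloud, with 2 genes at 0.

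Of the 4983 genes with at least 20 TPM in all 9 libraries, 3007 had a lowest level at least as high as their highest plant level, 1076 at least 2 times as high, 205 at least 4 times, 43 at least 8 times and 9 at least 16 times. The 43 genes are thus the tail of a continuous spread, as the plot of the choice shows. Among the 41 genes with a plant level above 0, the lowest control or sugar level (this ratio has plant in the denominator) was 8.05 to 43.7 times the highest plant level, with a median of 10.6. For 18 of them it was below 10 times. Just inside the limit stood TR17525__c0_g1, at 24.4, 8.22 and 26.8 TPM on poplar and 17.4, 25.1 and 27.9 TPM on switchgrass and never below 225 TPM in the 9 libraries (8.05 times). TR12088__c0_g1 and TR6835__c3_g1 followed at 8.33 and 8.38 times. Just outside stood TR12390__c0_g1, TR17572__c0_g1 and TR9416__c0_g1, at 7.89, 7.85 and 7.71 times. TR9416__c0_g1 was among the abundant genes too, at 65.1, 25.0 and 68.3 TPM in poplar, 58.5, 67.2 and 45.8 TPM in switchgrass and at least 527 TPM in the other 9 libraries.

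How large the plant difference is depended on the scaling. With the 10 most abundant genes of each library set aside, the 43 genes held 0.0548 to 0.0984% of the remaining TPM in the plant libraries, 1.40 to 1.67% in the sugar libraries and 1.58 to 1.74% in control. With median-of-ratios scaling, which divides each library by its typical ratio to the average of 9213 genes detected in all 16 libraries, 3 of the 43 genes still had an 8-fold gap and 18 a 4-fold gap. In all 43 the lowest scaled control or sugar level stayed above the highest scaled plant level, by 1.18 times at the least. The choice had already fixed that all 43 would stay above, so this is no check on the scaling. Among the plant libraries the divisor was lowest in the second poplar library (0.230). Among the control and sugar libraries it was highest in the glucose library (1.83). Divisors within these limits cannot close the 8-fold gap that the choice required.

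**Figure D2:**
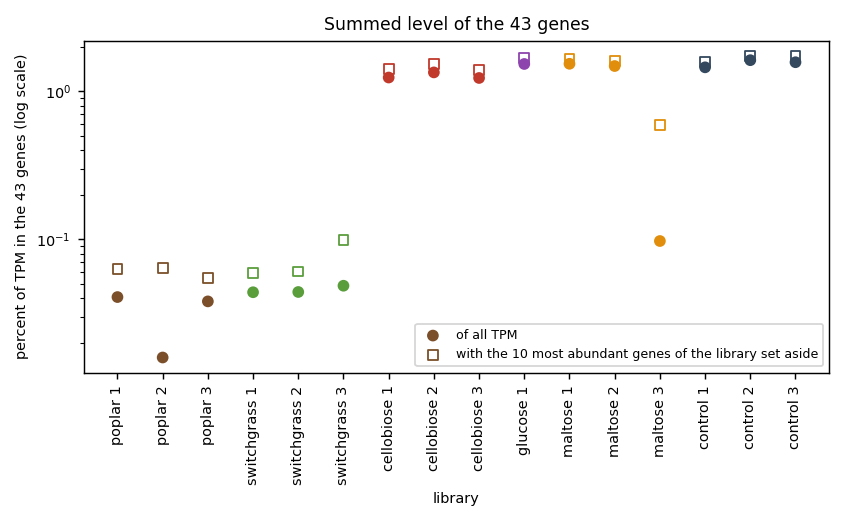
Percent of TPM held by the 43 genes in each of the 16 libraries (log axis), of all TPM (filled circles) and with the 10 most abundant genes of that library set aside (open squares). The 6 plant libraries lie below 0.1% on both measures, the third maltose library lies between, and the other 9 lie above 1%.

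Among the plant libraries the second poplar library was lowest for 19 of the 43 genes and held 0.0158% of its TPM in them. It was also the plant library whose 10 most abundant genes took the largest share (75.3%). The third switchgrass library was highest for 17 genes. The part of these library differences in the levels of single genes was not tested.

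**Figure D3:**
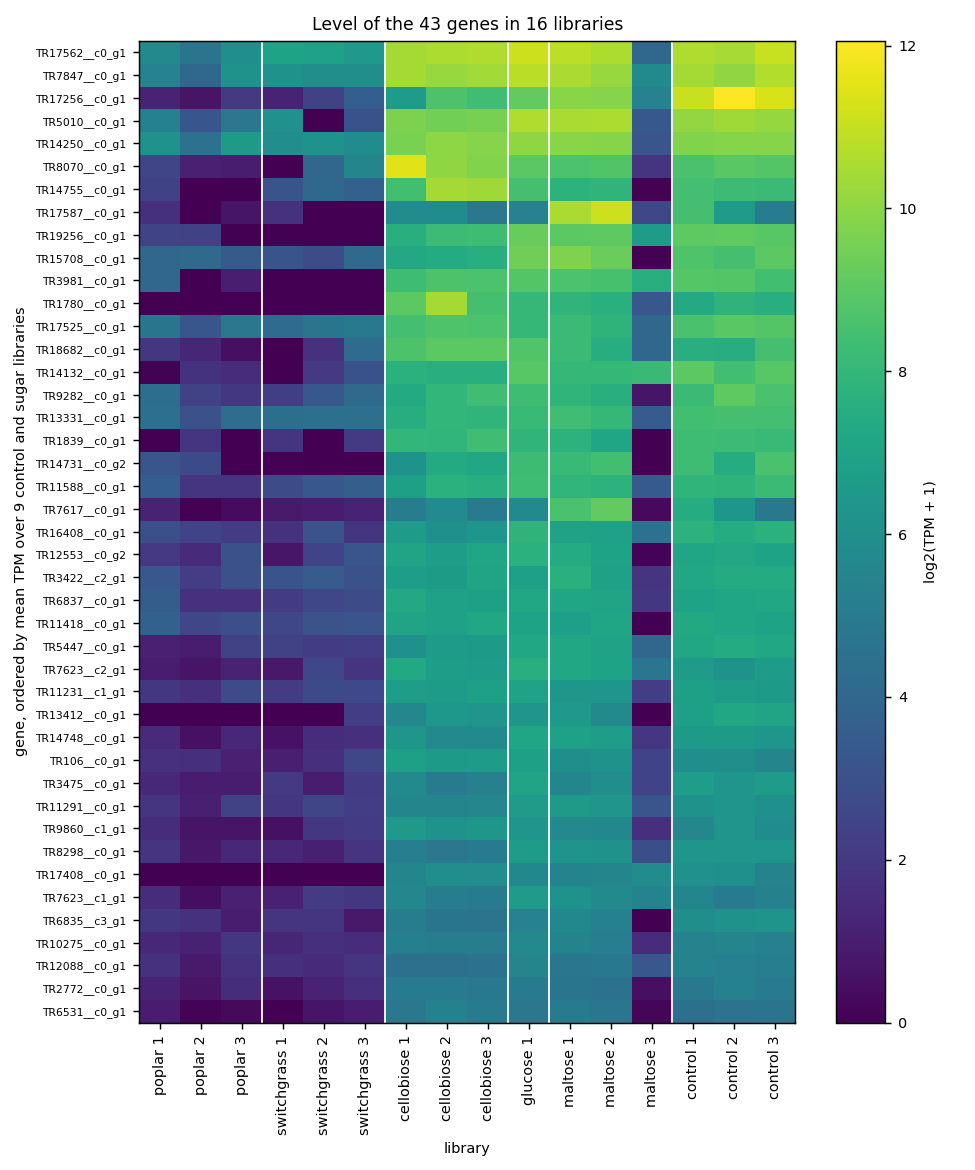
Level of each of the 43 genes (rows, ordered by mean TPM over the 9 control and sugar libraries) in the 16 libraries (columns), as log2(TPM + 1). In every row the 6 plant columns are darker than the 9 control and sugar columns used for the choice. They are brightest in a few of the most abundant genes, at up to 128 TPM in TR17562__c0_g1. The third maltose column is dark for most rows, and single rows stand out on cellobiose, on maltose (libraries 1 and 2) and in control.

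The most abundant genes of the group were TR17562__c0_g1, TR7847__c0_g1, TR17256__c0_g1, TR5010__c0_g1, TR14250__c0_g1, TR8070__c0_g1, TR14755__c0_g1, TR17587__c0_g1, TR19256__c0_g1 and TR15708__c0_g1, by their mean over the 9 libraries (444 to 1692 TPM); the means of the rest of the 43 were 27.4 to 401 TPM. TR17562__c0_g1 was at 50.7, 23.8 and 63.5 TPM on poplar and 128, 120.3 and 88.0 TPM on switchgrass, against 1360.5, 1540.4 and 1565 TPM on cellobiose, 2266 TPM on glucose, 1875, 1542 and 14.98 TPM on maltose and 1566, 1422 and 2094 TPM in control. TR7847__c0_g1 was at 40.2, 15.5 and 69.8 TPM on poplar and 70.2, 62.1 and 60.8 TPM on switchgrass, against 1384, 1183 and 1328 TPM on cellobiose, 1815 TPM on glucose, 1466, 1162 and 52.5 TPM on maltose and 1362, 1050.2 and 1628 TPM in control. In both genes every plant library lay far below the 9 libraries, and the third maltose library lay with the plant libraries.

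TR14250__c0_g1 was the steadiest of the 43. It was at 72.5, 22.5 and 93.3 TPM on poplar and 58.6, 73.2 and 58.2 TPM on switchgrass, against 801, 1014 and 919 TPM on cellobiose, 1078 TPM on glucose, 951, 948 and 8.13 TPM on maltose and 861, 925 and 948 TPM in control. Its highest value over the 9 libraries was 1.35 times its lowest. TR5010__c0_g1 was at 38.6, 8.25 and 26.1 TPM on poplar and 67.2, 0 and 7.09 TPM on switchgrass, against 829, 730.02 and 770.01 TPM on cellobiose, 1554 TPM on glucose, 1468, 1514 and 8.99 TPM on maltose and 1103, 1305 and 1147 TPM in control. Its cellobiose libraries all lay below its control libraries, and it was listed at 0 in the second switchgrass library.

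A pair of genes was listed at 0 in all 6 plant libraries. They and the pair after them are named because their values stood out. TR1780__c0_g1 was at 517, 1386 and 356 TPM on cellobiose, 257 TPM on glucose, 233, 203 and 8.52 TPM on maltose and 162, 231 and 189.6 TPM in control. TR17408__c0_g1 was at 45.7, 64.2 and 59.0 TPM on cellobiose, 48.8 TPM on glucose, 42.2, 44.2 and 55.6 TPM on maltose and 67.4, 66.4 and 41.1 TPM in control. The cellobiose libraries of TR1780__c0_g1 all lay above control, with the second far above the others, and the third maltose library was near 0. In TR17408__c0_g1 all 10 control and sugar libraries, the third maltose library included, were within 41.1 to 67.4 TPM.

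TR19256__c0_g1 and TR1839__c0_g1 had the widest finite gaps. TR19256__c0_g1 was at 4.60, 3.99 and 0 TPM on poplar and 0, 0 and 0 TPM on switchgrass, against 196, 311 and 315 TPM on cellobiose, 608 TPM on glucose, 514, 536 and 97.8 TPM on maltose and 537, 545 and 481 TPM in control. TR1839__c0_g1 was at 0, 2.65 and 0 TPM on poplar and 2.52, 0 and 3.12 TPM on switchgrass, against 256, 244 and 327 TPM on cellobiose, 234 TPM on glucose, 219, 136 and 0 TPM on maltose and 321, 309 and 276 TPM in control. Their lowest control or sugar levels were 42.6 and 43.7 times their highest plant levels. The third maltose library of TR1839__c0_g1 was listed at 0, while that of TR19256__c0_g1 was at 97.8 TPM.

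Within the control and sugar libraries the 43 genes were not uniform. The highest of the 9 values was a median of 2.61 times the lowest, against 1.74 times over all 4983 genes with at least 20 TPM. It was under 2 times for 13 of the 43 genes (67.8% of the 4983) and at least 4 times for 9 (6.44%). By group mean, with maltose taken from its first and second libraries, cellobiose was the lowest of the 4 groups for 26 genes (35.2% of the 4983 genes), glucose for 1 (7.30%), maltose for 11 (46.1%) and control for 5 (11.3%). The glucose library was the highest for 21 genes (40.7%), cellobiose for 6 (27.1%), maltose for 4 (3.23%) and control for 12 (29.0%). These figures stay within the poly-A libraries and are a description, since the choice used the lowest of the same 9 values; it used no contrast between a sugar and control.

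Growth on cellobiose was compared with growth without an energy substrate, within 1 preparation. All 3 cellobiose libraries lay below all 3 control libraries for 18 of the 43 genes and above them for 5. Over all 23981 tested genes the shares were 16.3% below and 15.7% above, and over the 4983 genes with at least 20 TPM they were 31.6% and 19.3%. TR17256__c0_g1 differed most, at 98.2, 409 and 330.5 TPM in cellobiose and 2113, 4266 and 2600.4 TPM in control. TR15708__c0_g1 was at 157, 171 and 187 TPM in cellobiose and 422, 358 and 522 TPM in control. TR8298__c0_g1 was at 36.3, 26.3 and 30.9 TPM in cellobiose and 81.6, 83.8 and 79.2 TPM in control, and TR16408__c0_g1 at 102, 65.3 and 80.7 TPM in cellobiose and 218, 177 and 206 TPM in control. TR17256__c0_g1 averaged 279 ± 162 TPM in cellobiose and 2993 ± 1129 TPM in control (SD, n = 3 each); its replicates differed widely, and still did not overlap. In the other 3 genes the replicates of each group lay closer together.

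The genes named from this comparison were chosen after their values were seen. The 5 genes with all cellobiose libraries above control were TR1780__c0_g1, TR8070__c0_g1, TR18682__c0_g1, TR106__c0_g1 and TR6531__c0_g1. TR8070__c0_g1 was at 2888, 1049 and 866 TPM in cellobiose and 386, 509.5 and 459 TPM in control, and TR18682__c0_g1 at 408, 514 and 515 TPM in cellobiose and 188, 180.1 and 363 TPM in control. TR106__c0_g1 was at 113, 94.8 and 100.4 TPM in cellobiose and 62.6, 61.8 and 44.3 TPM in control, and TR6531__c0_g1 at 27.6, 37.8 and 31.1 TPM in cellobiose and 21.0, 23.2 and 23.9 TPM in control. TR14755__c0_g1 was at 341, 1401 and 1306 TPM in cellobiose and 346, 302 and 299 TPM in control, so its first cellobiose library lay within the range of control and the other 2 far above it. The first cellobiose library was far above the others in TR8070__c0_g1 and the second in TR1780__c0_g1, so the cellobiose libraries of both genes spread widely. In TR18682__c0_g1, TR106__c0_g1 and TR6531__c0_g1 the cellobiose libraries lay closer together.

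In the test over all 23981 genes, limma with all 16 libraries on log2(TPM + 1) and a Benjamini-Hochberg adjusted p under 0.05, 0 of the 43 genes were called in cellobiose against control, and 1 had an unadjusted p under 0.05 (2.33%, against 5.35% of all genes and 1.61% of the 4983). Over all genes 0.2% were called higher and 0.0792% lower. The median log2 fold change was -0.27 over the 43 genes, -0.09 over the 4983 and -0.0015 over all tested. The log2 fold change was -3.59 ± 1.08 (SE) for TR17256__c0_g1 (adjusted p = 0.312), and -1.32 ± 1.59 for TR15708__c0_g1, -1.37 ± 0.79 for TR8298__c0_g1, -1.29 ± 0.77 for TR16408__c0_g1, 1.72 ± 0.96 for TR1780__c0_g1, 1.62 ± 1.48 for TR8070__c0_g1 and 1.44 ± 1.42 for TR14755__c0_g1 (limma adjusted p = 1 each). The spread in this test is shared by all groups and includes the third maltose library. In a limma fit without that library TR17256__c0_g1 was called lower (standard error 0.643, adjusted p = 0.00874; 0.00774 to 1 over the 12 alternatives that keep the column names) and 1 of 43 genes was called in all, against 0.613% of all genes called lower and 0.705% called higher. Over the 4983 genes the fit without that library called 0.442% lower and 0.682% higher. In a limma fit to the cellobiose and control libraries alone, 15 of the 43 genes were called lower and 3 higher. The shares in that fit were 9.39% and 7.95% of 18432 genes, and 17.6% and 10.4% of the 4983. The 3 called higher were TR8070__c0_g1, TR18682__c0_g1 and TR106__c0_g1.

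**Figure D4:**
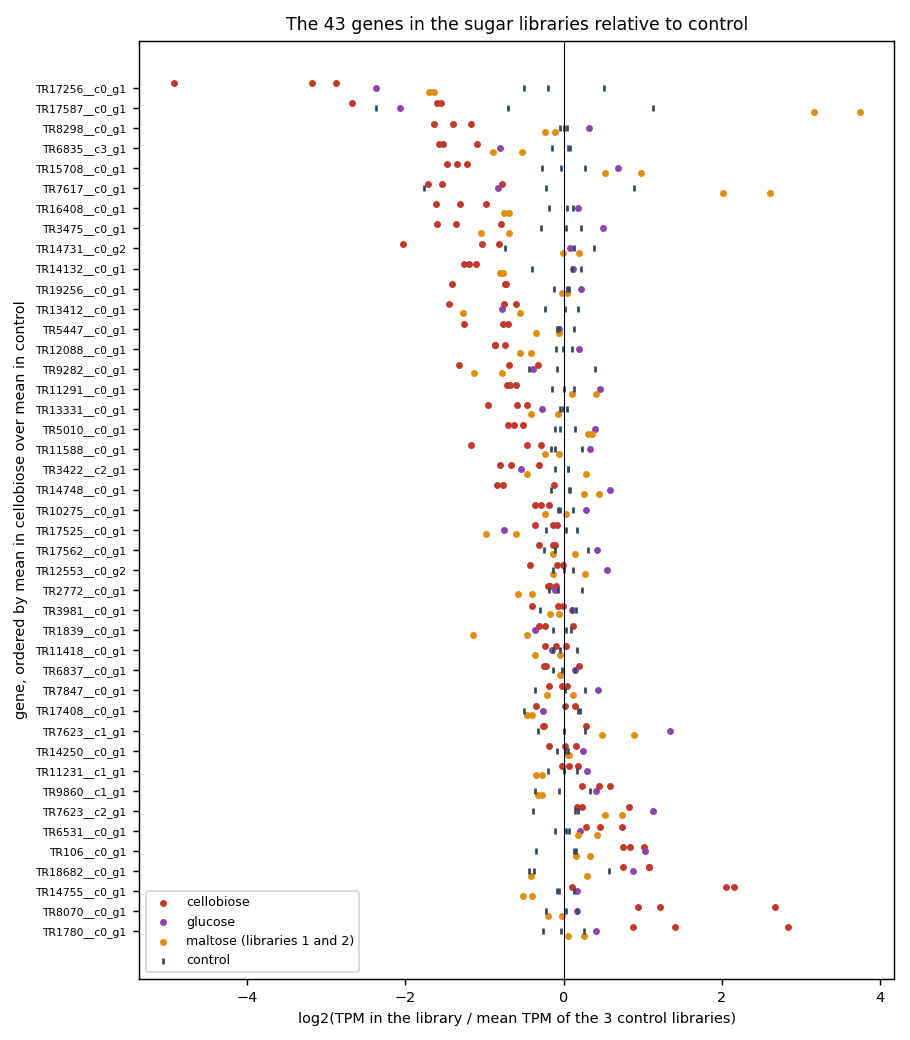
Each control and sugar library used for the choice relative to the mean of the 3 control libraries, as log2 of the TPM ratio, for the 43 genes ordered by their cellobiose mean over their control mean. Cellobiose points lie left of control for the upper rows and right of it for the lowest rows, and the 2 maltose points lie 2 or more log2 units to the right in TR17587__c0_g1 and TR7617__c0_g1.

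Growth on maltose was compared with control in the same way, with and without the third maltose library. With all 3 maltose libraries, 15 of the 43 genes lay below every control library and 0 above (21.8% and 0.475% of all tested genes). With the first and second alone, 15 lay below and 9 above (22.9% and 13.4% of all tested genes; 39.8% and 7.71% of the 4983). Largest among the 9 were TR17587__c0_g1 and TR7617__c0_g1. TR17587__c0_g1 was at 1490.4, 2233 and 4.84 TPM on maltose and 365, 102 and 32.1 TPM in control. TR7617__c0_g1 was at 384, 580.2 and 0.25 TPM on maltose and 176, 81.2 and 28.0 TPM in control. Both genes were high in the first and second maltose libraries, near 0 in the third, and uneven in control, with the first control library highest and the third lowest.

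With all 16 libraries limma called 0 of the 43 genes in maltose against control (9 of them, 20.9%, at an unadjusted p under 0.05, against 6.34% of all genes and 6.66% of the 4983; 0% of all genes called higher and 0.00417% lower). All 9 of these genes were lower on maltose, at log2 fold changes of -3.28 to -1.83. Without the third maltose library these shrank to -1.60 to -0.45, so their size rested largely on that library. The median log2 fold change was -1.62 over the 43 genes, -1.37 over the 4983 and -0.61 over all tested; without the third maltose library it was -0.098, -0.17 and -0.084. The log2 fold change was 1.32 ± 1.502 for TR17587__c0_g1 and -0.20 ± 1.47 for TR7617__c0_g1 (limma adjusted p = 0.667 and 0.965). Without the third maltose library both genes were called higher, at 4.08 ± 0.83 and 2.66 ± 0.64 (limma adjusted p = 0.00528 and 0.0214). They were the 2 of 43 called, against 3.79% of all genes called higher and 0.189% called lower. Of the 4983 genes, which include the 43, 2 were called higher (0.0401%) and 4 lower (0.0803%). Over the 11 alternatives that keep the column names the limma adjusted p ran from 0.00528 to 0.992 for TR17587__c0_g1 and from 0.0214 to 0.997 for TR7617__c0_g1. The direction of TR7617__c0_g1 was not stable: with that library kept, its log2 fold change was 0.59 after median-of-ratios scaling and 0.42 without the first control library.

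Cellobiose and maltose, which differ in the linkage between their glucose units, were compared directly; this comparison shares libraries with those above. All cellobiose libraries lay above all 3 maltose libraries for 10 of the 43 genes and below them for 1, TR14132__c0_g1 (23.5% and 1.05% of all tested genes, and 32.6% and 0.783% of the 4983). Against the first and second maltose libraries alone, 11 lay above and 18 below (24% and 18.2% of all tested genes; 32.8% and 19.97% of the 4983). TR17587__c0_g1 was at 55.0, 56.8 and 26.1 TPM in cellobiose and TR7617__c0_g1 at 32.8, 55.4 and 28.9 TPM, both far below the first and second maltose libraries. TR15708__c0_g1 was at 157, 171 and 187 TPM in cellobiose and 856, 622 and 0 TPM in maltose. With all 16 libraries limma called 0 of the 43 genes (7 of them, 16.3%, at an unadjusted p under 0.05, against 13.9% of all genes and 11.6% of the 4983; 0.442% of all genes called higher and 0.0417% lower), with log2 fold changes of -2.60 ± 1.502 for TR17587__c0_g1, -0.76 ± 1.47 for TR7617__c0_g1 and 1.08 ± 1.59 for TR15708__c0_g1 (limma adjusted p = 0.394, 0.779 and 0.705). Without the third maltose library these 3 genes were called lower, at -5.36 ± 0.83, -3.62 ± 0.64 and -2.09 ± 0.49 (limma adjusted p = 0.000287, 0.00105 and 0.0120). Of all genes 5.16% were called lower and 0.949% higher, and of the 4983 genes 0.301% and 0.863%. The median log2 fold change was 1.32 over the 43 genes, 1.29 over the 4983 and 0.65 over all tested, and without that library -0.21, 0.11 and 0.1007. Over the 11 alternatives that keep the column names the limma adjusted p ran from 0.000287 to 0.658 for TR17587__c0_g1, from 0.00105 to 0.969 for TR7617__c0_g1 and from 0.0120 to 0.881 for TR15708__c0_g1.

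The single glucose library lay above all 3 control libraries for 25 of the 43 genes and below them for 8 (37.6% and 21.5% of all tested genes; 43.7% and 26.3% of the 4983). TR15708__c0_g1 was at 698 TPM in the glucose library and TR5010__c0_g1 at 1554 TPM, both above control, while TR17256__c0_g1 was at 576 TPM, below it. Both genes named first had cellobiose values below control, but the difference between glucose and cellobiose was not tested. TR7623__c1_g1 and TR7623__c2_g1, which share a TR number and were named after their values were seen, were at 96.6 and 196 TPM in the glucose library, and their control libraries were at 45.6, 30.2 and 37.9 TPM and 102, 68.8 and 98.8 TPM. The median log2 fold change was 0.1955 over the 43 genes, 0.074 over the 4983 and 0.0688 over all tested. Limma called 0 of the 43 genes in glucose against control (0 at an unadjusted p under 0.05, against 1.92% of all genes and 0.221% of the 4983; 0% of all genes called in either direction), on the assumption that the lone library varies as the other groups do.

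Switchgrass and poplar share a preparation, and their difference was not used in the choice. Switchgrass libraries lay above all poplar libraries for 2 of the 43 genes and below them for 1 (2.83% and 1.89% of all tested genes, and 2.61% and 0.140% of the 4983). TR17562__c0_g1 was at 128, 120.3 and 88.0 TPM in switchgrass and 50.7, 23.8 and 63.5 TPM in poplar. TR14755__c0_g1 was at 7.78, 15.2 and 12.54 TPM in switchgrass and 4.22, 0 and 0 TPM in poplar. TR14731__c0_g2 had 0 TPM in every switchgrass library and 8.01, 5.62 and 0.01 TPM in poplar. Limma called 0 of the 43 (0 at an unadjusted p under 0.05, against 4.38% of all genes and 1.40% of the 4983; 0.0208% of all genes called higher and 0.00417% lower). The median log2 fold change was 0.36 over the 43 genes, 0.60 over the 4983 and 0.27 over all tested. The log2 fold changes were 1.36 ± 1.30 for TR17562__c0_g1 and 2.84 ± 1.42 for TR14755__c0_g1 (limma adjusted p = 1 each). The interval of these differences is wide, so the test does not show that the substrates gave alike levels.

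The third maltose library gives a view of the 43 genes that the choice did not use. It held 0.0972% of its TPM in them, against 1.53% and 1.48% in the first and second maltose libraries. With the 10 most abundant genes set aside it held 0.595%, against 1.65% and 1.61%. The median gene of the 43 was there at 3.91% of its mean in the first and second, and the median over the 4983 genes was 6.42%. In this library 6 of the 43 genes were listed at 0 (13.95%, against 5.80% of the 4983) and 9 were at 20 TPM or more (20.9%, against 15.5%). The low values of most of the 43 genes in this library therefore had a counterpart in most other abundant genes. With 1 library there is no test.

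The genes of the 43 with the highest TPM in the third maltose library are given first. Those nearest to or above their level in the other maltose libraries follow. TR14132__c0_g1 was highest, at 286 TPM, and its first and second maltose libraries were at 263 and 258 TPM. TR3981__c0_g1 was at 187 TPM there and at 403 and 370.01 TPM in the others, and TR19256__c0_g1 at 97.8 TPM there and at 514 and 536 TPM. These 3 had the highest values of the 43 in that library. TR17408__c0_g1 and TR7623__c1_g1, named after their values were seen, were at 55.6 and 42.8 TPM there, which is 129% and 69.5% of their means in the first and second. With TR14132__c0_g1 (109.8%) they were the 3 of 43 genes at 50% or more of that mean, against 5.12% of the 4983. In the plant libraries TR14132__c0_g1 was at 0.06, 2.41 and 1.85 TPM in poplar and 0, 2.99 and 7.31 TPM in switchgrass, and TR3981__c0_g1 at 14.7, 0 and 1.02 TPM in poplar and 0 in all 3 switchgrass libraries.

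**Figure D5:**
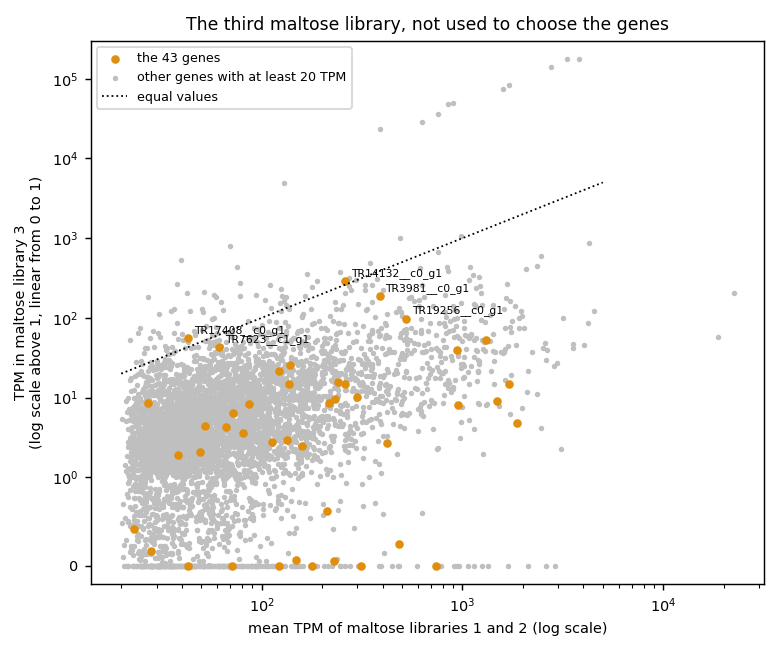
TPM in the third maltose library (y axis, log scale above 1) against the mean of the first and second maltose libraries (x axis, log scale) for the 43 genes and the other genes with at least 20 TPM in the 9 libraries. Most points lie far below the line of equal values, and TR14132__c0_g1, TR17408__c0_g1 and TR7623__c1_g1 lie near it.

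Most of the 43 genes were assembled as 1 transcript. An isoform is an alternative transcript of a gene in the assembly, and 34 of the 43 genes had 1 isoform (79.1%, against 70.1% of the 4983); the other 9 had up to 8. Among those 9 the share of the leading isoform, the one with the highest mean over the 9 libraries, differed most between groups in TR6835__c3_g1. That isoform, TR6835__c3_g1_i1, held 10.04, 24.1 and 32.2% of the gene in the cellobiose libraries, 29.2% in the glucose library, 45.8 and 38.1% in maltose libraries 1 and 2 and 51.1, 36.2 and 55.5% in the control libraries. Another isoform, TR6835__c3_g1_i3, was above it in the 3 cellobiose libraries and in the glucose library, at 16.3, 7.14 and 8.80 TPM against 3.29, 5.89 and 7.61 TPM on cellobiose and 17.8 TPM against 11.7 TPM on glucose. The cellobiose shares of TR6835__c3_g1_i1 all lay below its control shares, in a gene whose total also lay below control in cellobiose, at 32.8, 24.4 and 23.6 TPM in cellobiose and 63.3, 73.0 and 74.2 TPM in control. The next largest differences were in TR7617__c0_g1 and TR11291__c0_g1, whose leading isoforms (TR7617__c0_g1_i1 and TR11291__c0_g1_i3) differed between groups by up to 12.6 and 9.88 percentage points. In TR7617__c0_g1 the group that stood apart was the single glucose library, at 37.6%, and the cellobiose libraries (50, 55.2 and 44.6%) overlapped with control (55.9, 48.4 and 46.3%). In TR11291__c0_g1 the leading isoform held 48.1, 52.5 and 49.5% in cellobiose and 42.3, 44.1 and 34.0% in control, without overlap.

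Some of the 43 genes share a TR number of the assembly with other genes. Such genes may be near-identical copies whose reads the counting could split between them, so their levels are uncertain. Of the 43 genes 13 had such partners, with 23 partner genes outside the group. Of the 23, 9 were at 20 TPM or more in all 9 libraries; in all 9 of them the lowest of those values lay above the highest plant value (60.3% of the 4983 genes), and in 5 it was at least 4 times as high (4.11%). The highest single plant values were in the partners of TR14755__c0_g1. TR14755__c0_g2 was at 5.54, 1.28 and 1.45 TPM in poplar, 10.2, 69.8 and 205 TPM in switchgrass and at least 423 TPM in the 9 libraries. TR14755__c1_g1 was at 8.40, 6.25 and 3.42 TPM in poplar, 10.8, 45.5 and 166 TPM in switchgrass and 3053, 4009 and 4188 TPM in cellobiose, against 638, 722 and 730.2 TPM in control. Both partners of TR14731__c0_g2 were also abundant in the 9 libraries and lower on plants. TR14731__c0_g1 was at 150.2, 77.8 and 4.97 TPM in poplar, 0, 40.2 and 53.2 TPM in switchgrass and at least 724 TPM in the 9 libraries, and TR14731__c1_g1 at 158, 79.6 and 4.72 TPM, 0, 42.4 and 112 TPM and at least 644 TPM. In both of them the poplar and switchgrass libraries were uneven and overlapped.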

How the data were processed

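RNA from whole fungal cultures was sequenced in 16 libraries. The deposited values are TPM per transcript, estimated by the authors with RSEM, per the submitters' processing notes; assembler, aligner, versions and filters: not given in the sources used here. The table used is presented as RSEM counts, but each column sums to 1000000 within 0.87, so its values were read as TPM. Depth is unknown, and no count test was run. Columns of other series numbered 0. Transcripts were summed to genes. The 43 genes, the lists and the tests were chosen with earlier results of these data known. The 23981 genes that reached 1 TPM in 3 or more libraries (all 43 among them) were tested on log2(TPM + 1) with limma 3.58.1 in R 4.3.3, with an intensity trend, 6 group means over all 16 libraries and Benjamini-Hochberg adjustment over all genes tested; a call is an adjusted p under 0.05. The script was tested on simulated data. A fold change on this scale understates the change of low genes. For 1 gene alone, 3 against 3 libraries allow an exact two-sided permutation p of 0.1 at the least, so no such test is printed. Genes named with values are the 10 most abundant, those called, those next to the limits, those highest in the third maltose library, those with the largest isoform differences and those with partners on plants; others are said to be chosen after their values were seen. Alternatives covered the limits, the scaling, a pseudocount of 0.1, no filter, the groups fitted, the replicate number as a block, each library left out and the other table's column names.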

Additional observations from a re-analysis of the deposited data

How the results depend on the processing

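The number of genes that met the rule was 205 at 4-fold, 9 at 16-fold, 91 at 10 TPM, 27 at 50 TPM, 3 after median-of-ratios scaling, 5 when the third maltose library also had to pass and 0 under the other table's column names. With 1 library left out it was 43 to 71, with 71 without the first cellobiose library and 65 without the third switchgrass library; single transcripts gave 45. Called members in cellobiose against control numbered 1 after scaling (178 of all 23981 genes called) and 18 with the compared groups only (3197 of 18432). With 1 library left out they numbered 0 to 1, the 1 without the third maltose library (314 of 23822 genes). Leaving out 1 library gave 0 to 2 in maltose against control and 0 to 3 in cellobiose against maltose. The 2 and the 3 were again without the third maltose library, where 948 and 1456 of 23822 genes were called. The other table's names gave 43 in maltose against control (9206 of all 23981 genes called) and 43 in cellobiose against maltose (7912). They gave 1 in switchgrass against poplar (340) and 15 in glucose against control (5394). Under those names the log2 fold changes of cellobiose against control were those of switchgrass against poplar here. Comparisons with control or cellobiose under those names thus involve plant libraries that the choice used, and their counts carry no test. Why the counts moved under the other alternatives was not tested. The compared-groups fit differs by leaving out the other groups' spread.

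The other table's names set other libraries against each other, and some log2 fold changes then had the opposite sign. These were TR17256__c0_g1 (1.06) and TR8298__c0_g1 (0.092) in cellobiose against control and TR7617__c0_g1 (7.29) in maltose against control. TR15708__c0_g1 (-6.17) in cellobiose against maltose and TR14755__c0_g1 (-1.44) in switchgrass against poplar did so too. The values 1.06 and 0.092 are those of switchgrass against poplar here. The value -1.44 is that of cellobiose against control here with its sign turned. TR7617__c0_g1 in maltose against control was 0.59 after scaling and -1.77 to 2.66 with 1 library left out, positive without the first control library (0.42) or the third maltose library (2.66). In the same comparison TR17587__c0_g1 ran from -0.21 to 4.08, with the lowest value without the second maltose library. In cellobiose against maltose TR7617__c0_g1 ran from -3.62 to 0.81 and was positive without the first (0.51) or second (0.81) maltose library, and TR15708__c0_g1 ran from -2.09 without the third to 2.78. Scaling moved the median log2 fold change of all genes to -0.06 in maltose against control, against -0.61 unscaled, and to 0.10 and -0.03 in cellobiose against maltose and switchgrass against poplar, against 0.65 and 0.27.

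With the replicate number as a block, 0 members were called in each of the 5 comparisons, as without it, so no call was there to lose. The block was not run without the third maltose library or on the compared groups only. Same-numbered libraries did not deviate together (correlations of -0.19 to 0.0711). With 3 libraries per group, some of them outlying, this cannot show whether equal numbers mark a pair or a batch, and the labels do not say. The fit to the compared groups only was not run for glucose, which has 1 library. TPM keeps no read depth, so low plant values and zeros cannot be given a counting error.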

Other observations

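Some genes outside the 43 had 1 transcript that met the same limits while the gene as a whole did not. With the rule applied to single transcripts, 45 transcripts of 45 genes passed, of which 37 belong to the 43 genes and 8 do not. The clearest was TR17800__c1_g3, with 3 isoforms. Its isoform TR17800__c1_g3_i3 was at 0, 1.46 and 0 TPM in poplar and 0, 7.32 and 13.7 TPM in switchgrass, against 114, 147 and 199 TPM in cellobiose and 227, 286 and 180.2 TPM in control. The gene as a whole was at 69.0, 32.7 and 180.1 TPM in poplar and 153, 121 and 99.1 TPM in switchgrass, against 256, 243 and 312 TPM in cellobiose and 307, 379 and 278 TPM in control. In the plant libraries most of its TPM was thus assigned to the other 2 isoforms. TR6748__c0_g1, with 2 isoforms, showed the same: its isoform TR6748__c0_g1_i1 was at most 7.92 TPM in the plant libraries and the gene at up to 56.2 TPM. How the authors' counting divided reads between isoforms is not given in the sources used here. The mirror of the rule asks for at least 20 TPM in all 6 plant libraries and at least 8 times the highest of the 9 control and sugar values. It was met by 82 of the 1094 genes with at least 20 TPM in all 6 plant libraries, on unscaled TPM. The rule itself was met by 43 of 4983.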
